A study of Mus musculus with 4 samples.

Results

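The genes described here are 6 Wnt ligands (Wnt2, Wnt2b, Wnt4, Wnt5a, Wnt5b and Wnt11), 3 secreted antagonists (Sfrp1, Sfrp5 and Dkk1) and Axin2, an intracellular regulator of the pathway. They were chosen by gene symbol, and each of the 10 symbols matched 1 of the 27998 genes counted. Their transcripts were followed in single cells of the mouse Mesp1 lineage in 4 droplet libraries, an E8.0, an E8.25, an E9.5 and an E10.5 one (E for embryonic day). All libraries had the same genotype, Mesp1Cre;Rosa26-GFPflox/+, on the Swiss Webster strain: Cre made from the Mesp1 gene, which is switched on in early mesoderm, permanently turns on GFP in those cells and their descendants. GFP-positive, DAPI-negative (living) cells were sorted from pooled embryos. Dissection took the upper body for both early libraries, E8.0 and E8.25, but heart and pharyngeal apparatus for both late libraries, E9.5 and E10.5, so stage and dissected region cannot be told apart. Values listed in stage order below run from E8.0 to E10.5. No group lacked the Cre or the reporter, and any cell outside the mesoderm in which the reporter had been switched on would also be sorted.

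Wnt proteins are lipid-modified signals that bind Frizzled receptors on nearby cells. With the co-receptors Lrp5 and Lrp6 they stabilise beta-catenin, which enters the nucleus and acts with TCF and LEF factors on target genes, while some ligands, among them Wnt5a and Wnt11, are best known for signalling without beta-catenin to steer cell polarity and movement. Sfrp proteins resemble the ligand-binding part of Frizzled and can capture Wnts outside the cell, Dkk1 binds the Lrp co-receptors, and Axin2 is both a target of beta-catenin signalling and part of the complex that degrades beta-catenin. In the early heart, beta-catenin signalling is known for keeping progenitors dividing, and its dampening and beta-catenin-independent Wnts for their differentiation.

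After filtering, 7118, 2884, 3921 and 7525 cells were kept in stage order, with a median of 15205 to 35216 UMIs (distinct captured transcripts) per cell. There was 1 library per stage, so stages were not tested against each other, and the intervals given with each library cover counting error only. Pairs of libraries shared between 16 and 88 cell barcodes. Cells were placed in compartments by marker genes, none of which is among the 10 genes. Cardiomyocyte-gated cells had at least 2 UMIs of at least 4 of 8 sarcomere genes, and endothelial-, erythroid- and macrophage-gated cells met similar lists of their own markers. The other compartments are named by their gate genes: Isl1/Nkx2-5 cells held transcripts of both genes, which mark progenitors of the second heart field, and Tbx5/Foxf1 cells those of both genes, which mark its posterior part. Tcf21/Lhx2 cells held markers of branchiomeric muscle progenitors, Prrx1/Twist1 cells those of mesenchyme, Meox1/Tcf15 cells those of somites, Wt1/Upk3b cells those of the epicardium and mesothelium, and Cdx cells those of the posterior body. Whether a gate, Wt1/Upk3b among them, held the same kind of cells in early and late libraries was not tested. Between 508 and 1935 cells per library met several of these mesodermal gates and were placed in the first that applied. The order was Cdx, Wt1/Upk3b, Meox1/Tcf15, Isl1/Nkx2-5, Tcf21/Lhx2, Tbx5/Foxf1 and Prrx1/Twist1, after the cardiomyocyte, endothelial, erythroid and macrophage gates. Isl1/Nkx2-5 cells thus leave out cells that also met the cardiomyocyte, Cdx, Wt1/Upk3b or Meox1/Tcf15 gate. Summed transcripts of 5 neural crest markers ranged from 19.4 to 46.4 counts per 1000000 UMIs (CPM) over the libraries, those of 6 endoderm markers from 8.88 to 22.7 CPM and those of 4 neurectoderm markers from 1.70 to 6.64 CPM, and their part in the results below was not tested. These marker sums are not amounts of cells outside the mesoderm, because they can rest on a few of the listed genes. At E9.5, endothelial-gated cells held 347 of the 627 endoderm-marker UMIs, with Foxa2, Cdh1, Cldn6 and Foxa1 at 0 there. Tbx5/Foxf1 cells at E10.5 had 87.1 CPM of the neural crest markers, with Sox10, Foxd3 and Tfap2b at 0. Haemoglobin took from 0.0298% (E9.5) to 10.45% (E10.5) of UMIs, and enters the total behind every level given over all cells.

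Of the 3 genes that were higher in cardiomyocyte-gated cells than in Isl1/Nkx2-5 cells (Wnt2, Sfrp5 and Wnt11), Wnt2 and Sfrp5 had the higher levels, and the sequences just upstream of their listed start sites are shown for that reason. The 250 bases before each RefSeq start (build GRCm38.p6, the release behind mm10) are printed on the gene's own strand, which is the minus strand for both, with capitals marking GATA motifs. These were AGATAA and AGATAG, or TGATAA and TGATAG, on either strand. Such letters stand in 26.5% of all 32851 RefSeq promoter windows of this length. The Sfrp5 window, chr19:42202253-42202502, lies outside the annotated gene (chr19:42197971-42202252). The Wnt2 window, chr6:18030446-18030695, precedes the listed start but lies within the annotated gene (chr6:17985474-18032772), whose span reaches further upstream.
Wnt2: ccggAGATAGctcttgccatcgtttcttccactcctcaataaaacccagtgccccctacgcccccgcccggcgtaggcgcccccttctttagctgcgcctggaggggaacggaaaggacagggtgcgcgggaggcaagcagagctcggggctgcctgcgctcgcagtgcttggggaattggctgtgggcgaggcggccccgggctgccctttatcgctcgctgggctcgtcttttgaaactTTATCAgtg
Sfrp5: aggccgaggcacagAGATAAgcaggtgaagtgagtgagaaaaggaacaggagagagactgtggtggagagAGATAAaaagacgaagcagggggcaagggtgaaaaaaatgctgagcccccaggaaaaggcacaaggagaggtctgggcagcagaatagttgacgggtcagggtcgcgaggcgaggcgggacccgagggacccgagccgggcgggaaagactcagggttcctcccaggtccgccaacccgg
Neither window held the TCF/LEF letters (CTTTGA and CTTTGT) or the T-box letters AGGTGT on either strand, which occur in 27.6% and 11.8% of all windows. Of the 10 genes, 8 had 1 or more windows in the table, 11 windows in all, and 3 genes each held TCF/LEF letters (Wnt5b, Wnt11 and Dkk1) and GATA letters (Wnt2, Wnt11 and Sfrp5). These matches describe the letters and do not show binding.

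Over all retained cells, the ligands and antagonists differed between stages each in its own way. Wnt4, a ligand known for roles in kidney and gonad, was the only one of them with both late levels 2-fold or more above both early levels, a pattern met by 8.76% of the 17035 genes compared (2.89% had the opposite pattern, with none of the 10 genes). Its levels in stage order were 1.75, 2.39, 9.77 and 9.38 CPM. With 1 library left out, 2 to 4 genes met the pattern or its opposite (4 without E8.0, 2 without E8.25, 2 without E9.5 and 3 without E10.5). The opposite was met by Axin2 without E8.25 and by Sfrp5 without E9.5, and the other genes counted were higher late. The 8.76% and 2.89% belong to the rule over 4 libraries. No share over all genes is given here for the fits with a library left out, so these counts have no background. With compartments given equal weight no gene met either pattern. Between neighbouring stages, E8.25 was 2-fold or more below E8.0 for Wnt5a (log2 ratio -1.60), Wnt5b (-1.27) and Sfrp5 (-1.16), and above it for none, against 7.25% of genes lower and 4.55% higher. E10.5 was 2-fold or more below E9.5 for Wnt2 (-1.72) and Sfrp5 (-3.44) and above it for none, against 4.97% of genes lower and 9.19% higher. The median log2 ratio of late over early levels was 0.40 over the 10 genes and 0.08 over all genes compared.

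Wnt2, a ligand active in the heart and lung-forming region, stood at 32.8, 31.4, 105.3 and 31.9 CPM in stage order, so that E9.5 alone was high. Wnt5a stood at 44.2, 14.5, 31.9 and 56.7 CPM in the same order of stages, with E8.25 lowest. Its close relative Wnt5b followed with 12.6, 5.23, 8.06 and 9.91 CPM. Over 42 sums of compartments within libraries, Wnt5a and Wnt5b had a Pearson r of 0.80 on the log scale, a description only because the sums of a library share its depth and preparation. Wnt11, which steers polarity in heart and kidney, was low, at 2.03, 1.15, 2.76 and 3.52 CPM. Wnt2b was close to the limit of detection, with 169 UMIs in all 4 libraries and a level of 0.297 to 0.453 CPM, against 0.161 to 0.249 CPM in erythroid-gated cells, and at most 2.73 CPM (4 UMIs) in any compartment.

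Among the antagonists, Sfrp1 was the most counted gene of the 10 in every library and was higher in both late libraries, at 83.7, 69.9, 250.3 and 150.0 CPM. Sfrp5 was lowest at the last stage, with 31.3, 14.0, 40.4 and 3.73 CPM, and its log2 ratio of E10.5 over E9.5 was -3.44 (95% interval -3.58 to -3.30). Dkk1 stood at 23.0, 13.6, 21.9 and 15.6 CPM and ranged less than the other antagonists. Axin2 was higher in both early libraries, at 26.9 and 18.9 CPM, than in both late ones, at 11.9 and 9.98 CPM. Its late over early log2 ratio was -1.14 (-1.22 to -1.07). Levels over all cells also move with the mix of compartments: Cdx cells, for instance, numbered 1433 and 83 in the early libraries and 1 and 0 in the late ones. Within compartments the Axin2 levels of the early libraries were likewise above those of the late ones in Meox1/Tcf15 cells (32.6 and 23.3 against 11.5 and 10.46 CPM) and Prrx1/Twist1 cells (32.1 and 28.8 against 19.5 and 15.9 CPM), but not in Tbx5/Foxf1 cells (15.8 and 13.1 against 14.8 and 19.1 CPM).

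**Figure D1:**
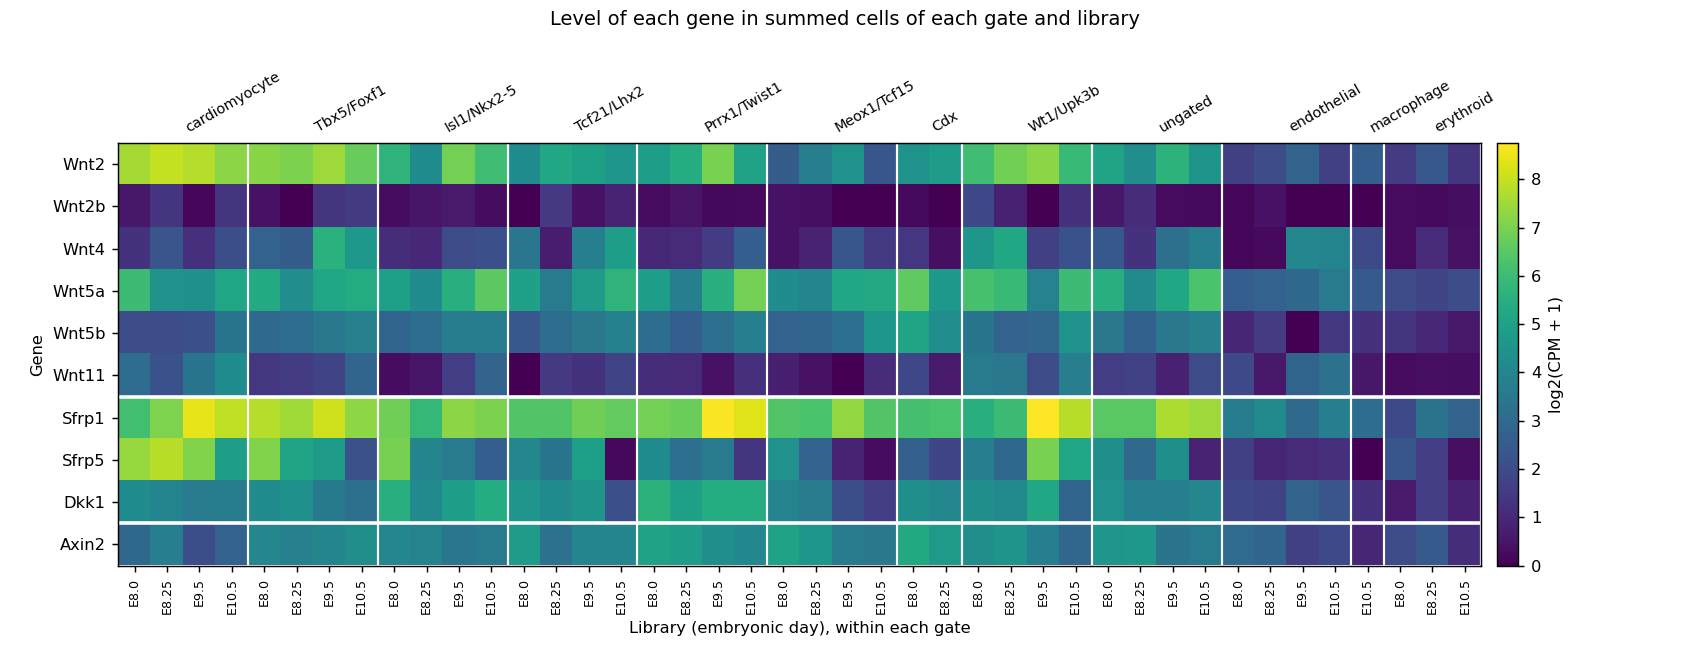
Level of each gene, as log2(CPM + 1), in the summed cells of each gate (blocks of columns) and library (columns), with ligands above, antagonists in the middle and Axin2 below. Wnt2 is brightest in cardiomyocyte-gated cells, as is Sfrp5 except at E10.5, where Wt1/Upk3b cells are above them (35.3 against 28.9 CPM). Sfrp1 is bright in late Prrx1/Twist1, cardiomyocyte-gated and Wt1/Upk3b cells, and nearly all genes are dark in the endothelial, macrophage and erythroid gates. Sums of at least 20 cells are shown.

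Wnt2 marked the cardiomyocyte-gated cells at all 4 stages, where it gave 71.5%, 88.1%, 86.4% and 68.9% of all ligand UMIs. In stage order its levels there were 192, 253, 218 and 148 CPM, compared with 50.2, 18.0, 121 and 65.7 CPM in Isl1/Nkx2-5 cells of the same libraries. The levels of the 4 cardiomyocyte sums all lay above those of the 4 Isl1/Nkx2-5 sums. Tbx5/Foxf1 cells were also rich in Wnt2, with 145, 129, 178 and 104 CPM. When every cell was thinned to 5000 UMIs, Wnt2 was detected in 44.8%, 60.0%, 46.1% and 31.1% of cardiomyocyte-gated cells (61.0%, 78.2%, 66.2% and 45.6% unthinned). The background in erythroid-gated cells, which were too few at E9.5, was 0.641%, 2.57% and 0.584% after thinning (6.41%, 16.3% and 3.60% unthinned), and their median depth, 28150 to 52128 UMIs, was above that of cardiomyocyte-gated cells, 15915 to 34568.

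Within the cardiomyocyte-gated cells Wnt2 was highest at the inflow side. Atrial/inflow cells, which held at least 2 of Nr2f1, Nr2f2, Vsnl1 and Sln, had 414 CPM of Wnt2 in the E8.0 library (95% Poisson interval 334 to 508, 10 cells), 454 in the E8.25 one (408 to 504, 21 cells), 298 in the E9.5 one (280.2 to 316, 198 cells) and 316 in the E10.5 one (287 to 348, 83 cells). Ventricular cells, by at least 2 of Myl2, Irx4, Hey2 and Myl3, had 203 CPM (185 to 222), 248 (201 to 303), 55.5 (46.5 to 65.7) and 24.3 (13.3 to 40.7). The intervals of these 2 groups did not overlap at any stage, and the gap was widest at E10.5. Outflow tract cells, by at least 2 of Isl1, Sema3c, Tdgf1 and Bmp4, were lower still in early libraries, at 94.7 and 82.6 CPM, and had 34.9 and 34.2 CPM in late ones. The ventricular and outflow tract intervals overlapped in both late libraries.

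Sfrp5, a Frizzled-related antagonist of the heart inflow and foregut, was highest in cardiomyocyte-gated cells in every library but the E10.5 one, and was lowest there at that stage. Cardiomyocyte-gated cells had 169.7, 222, 136 and 28.9 CPM in stage order. Atrial/inflow cells had 383 CPM (306 to 473), 471 (424 to 522), 230 (215 to 247) and 49.3 (38.2 to 62.6), and were above ventricular cells in every library (133, 88.8, 9.45 and 3.47 CPM). At E10.5 Sfrp5 was below its level in both early libraries in all 3 chamber groups. At E8.0 it was high in Isl1/Nkx2-5 cells as well, with 123 CPM against 14.7, 11.6 and 5.09 CPM later, and in Tbx5/Foxf1 cells, with 135, 33.8, 26.1 and 3.55 CPM. Wt1/Upk3b cells took the opposite course between early and late libraries, with 12.3 and 6.58 CPM in the early and 127 and 35.3 CPM in the late ones.

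Cells of the cardiomyocyte gate with Wnt2 more often held Sfrp5 as well. At E8.0, after thinning, Sfrp5 was found in 52.7% of the cells with Wnt2 (95% exact binomial interval 45.3 to 60.0) and in 25.0% of those without it (19.6 to 31.1). The later libraries had 59.1% and 20.5%, then 45.1% and 11.5%, and last 21.9% and 6.57%. The intervals of cells with and without Wnt2 did not overlap in any library. Without thinning, the shares with and without Wnt2 were, in stage order, 69.5% and 31.7%, 74.4% and 37.5%, 53.0% and 15.8%, and 34.8% and 13.7%. The excess was not limited to this gate. Thinned Prrx1/Twist1 cells had 26.6% and 3.56%, 13.1% and 2.32%, 8.68% and 1.97%, and 4.02% and 0.466%, with intervals apart in every library. In thinned Tbx5/Foxf1 cells the intervals were apart at E9.5 (11.2% and 1.65%) and E10.5 (4.05% and 0.251%). They overlapped at E8.0 and E8.25, and without thinning the order was reversed at E8.25 (36.4% and 45.5%). Within the cardiomyocyte gate both genes were highest in atrial/inflow cells. The part of chamber identity and of depth per cell in the excess was not tested.

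**Figure D2:**
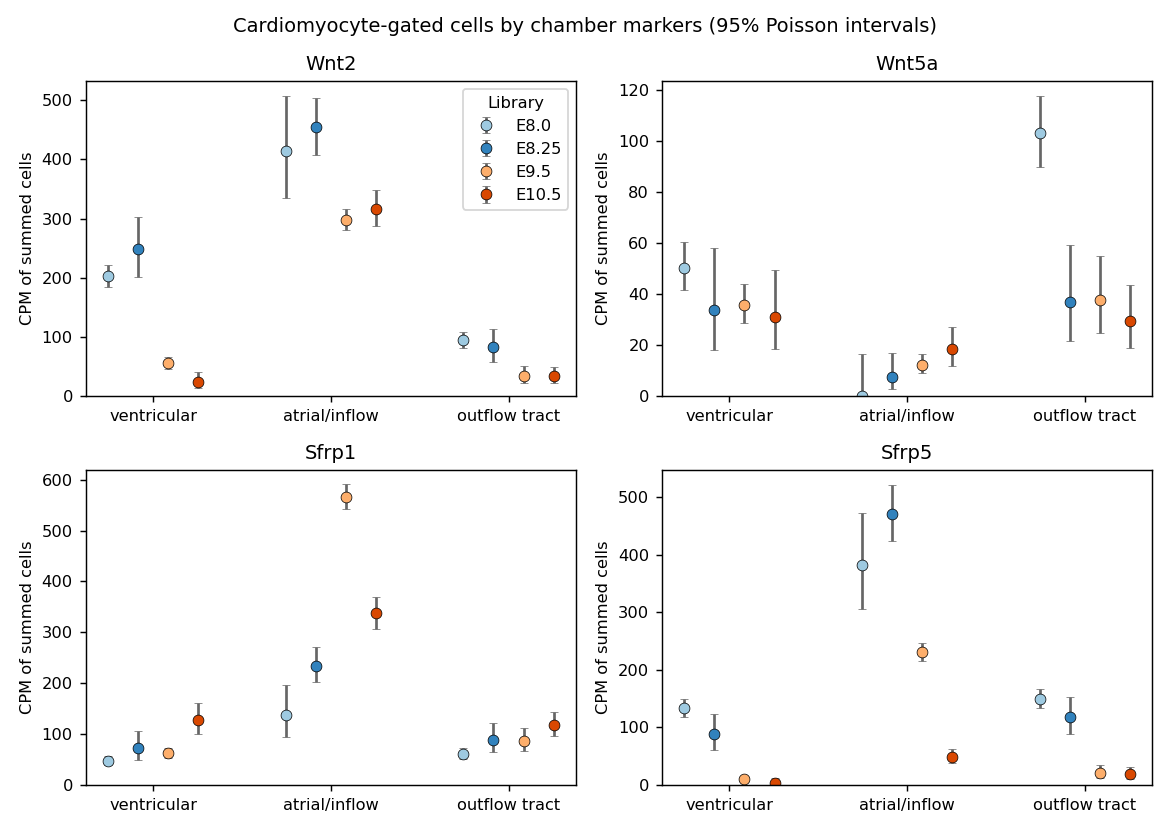
Level in CPM (linear axis from 0) of 2 ligands and 2 antagonists in cardiomyocyte-gated cells split by chamber markers, 1 point per library with its 95% Poisson interval (counting error only). Wnt2, Sfrp1 and Sfrp5 sit highest in atrial/inflow cells of each library, and Wnt5a lowest there; Sfrp5 is at 49.3 CPM in atrial/inflow cells at E10.5, its lowest there.

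Wnt5a was arranged the other way round in the heart. In atrial/inflow cells it had 0, 7.72, 12.4 and 18.4 CPM from E8.0 to E10.5, the 0 coming from 10 cells and allowing up to 13.4 CPM (3 UMIs), whereas ventricular cells had 50.4, 33.9, 35.7 and 31.2 CPM. Outflow tract cells at E8.0 had 103 CPM (89.9 to 118), more than any other chamber group. The later outflow tract sums, at 37.0, 37.7 and 29.5 CPM, had intervals that overlapped those of ventricular cells. Outside the heart, the highest levels were in Cdx cells at E8.0 (96.2 CPM, where Wnt5b was also highest at 33.6 CPM), in Isl1/Nkx2-5 cells at E10.5 (92.4 CPM) and in Prrx1/Twist1 cells at E10.5 (119 CPM). That level of Prrx1/Twist1 cells was 2.56-fold above the 46.5 CPM of E9.5, a difference beyond counting error that has no replicate to test it.

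Sfrp1 was broad. It was at 46.4 CPM or more in every sum of the mesodermal and cardiomyocyte gates and reached 417 CPM in Prrx1/Twist1 cells and 431 CPM in Wt1/Upk3b cells at E9.5. In cardiomyocyte-gated cells it was 68.4 and 133 CPM in the early and 341 and 239 CPM in the late libraries, which is opposite to the course of Sfrp5. Of the antagonist UMIs of these cells, Sfrp5 gave 66.2% at E8.0 and 10.3% at E10.5, and Sfrp1 gave 26.7% and 85.3%. At E9.5, atrial/inflow cells held 567 CPM of Sfrp1 (542 to 592), the highest level of any gene here in any sum.

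Dkk1, the Lrp-binding antagonist, had its highest level in Prrx1/Twist1 cells in every library, at 48.6, 30.9, 42.3 and 42.3 CPM. The next highest were Isl1/Nkx2-5 cells at E8.0 (43.7 CPM) and E10.5 (41.5 CPM), Tbx5/Foxf1 cells at E8.25 (20.04 CPM) and Wt1/Upk3b cells at E9.5 (36.5 CPM), and their intervals overlapped those of Prrx1/Twist1 cells except at E8.25. Isl1/Nkx2-5 cells had 17.0 and 28.4 CPM at the stages between, and cardiomyocyte-gated cells had 11.4 to 18.1 CPM. In Meox1/Tcf15 cells it was 14.2 and 10.98 CPM in the early libraries and 3.30 and 2.05 CPM in the late ones, and in Tcf21/Lhx2 cells it went from 22.1 CPM in the E9.5 library to 3.45 CPM in the E10.5 one.

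Wnt11 was faint and had its highest levels in cardiomyocyte-gated and Wt1/Upk3b cells. At E9.5, however, endothelial-gated cells (23 UMIs of 3740417) were above Wt1/Upk3b cells. Cardiomyocyte-gated cells had 7.84, 3.67, 9.49 and 18.1 CPM (14 to 106 UMIs a library), and Wt1/Upk3b cells 10.9, 10.1, 3.004 and 12.3 CPM (7 to 64 UMIs a library). Wt1/Upk3b cells were thus above cardiomyocyte-gated cells in both early libraries and below them in both late ones, with intervals apart at E8.25 and E9.5 and overlapping at E8.0 and E10.5. At E8.0 its level was 14.1 CPM in ventricular cells (9.68 to 19.97) and 4.71 CPM in outflow tract cells (2.26 to 8.66), and at E10.5 it was 22.4 CPM in outflow tract cells (13.5 to 35.0) and 6.94 CPM in ventricular cells (1.89 to 17.8). The intervals of these chamber groups were apart at E8.0 and overlapped at E10.5. Wnt5b, in contrast, was low in cardiomyocyte-gated cells, at 2.97, 3.14, 3.40 and 9.504 CPM, and its highest levels outside Cdx cells were in Meox1/Tcf15 cells (23.4 CPM) and Wt1/Upk3b cells (20.8 CPM) at E10.5. Axin2 was highest in Cdx cells too, with 38.8 CPM at E8.0; at E8.25 they had 25.8 CPM and Prrx1/Twist1 cells 28.8 CPM.

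Wnt4 was highest in different compartments early and late. In the early libraries its highest level was in Wt1/Upk3b cells, with 23.9 CPM at E8.0 and 36.2 at E8.25, which had 2.15 and 3.66 CPM in the late libraries. In the late libraries it was highest in Tbx5/Foxf1 cells at E9.5 and in Tcf21/Lhx2 cells at E10.5. Tbx5/Foxf1 cells had 47.3 and 24.7 CPM late after 5.70 and 5.01 early. Tcf21/Lhx2 cells had 12.9 and 29.3 CPM late after 9.83 (7 UMIs) and 0.570 (1 UMI) early. Endothelial-gated cells went from 1 UMI in each early library (0.101 and 0.177 CPM) to 15.8 and 14.6 CPM. Among them, endocardial cells, marked by Nfatc1, had 20.6 and 25.8 CPM in the late libraries, and the other, vascular cells had 11.8 and 6.19 CPM. The endocardial and vascular intervals overlapped at E9.5 (14.3 to 28.6 and 7.55 to 17.5 CPM) and not at E10.5 (20.4 to 32.2 and 4.01 to 9.14 CPM). After thinning, Wnt4 was detected in 20.4% of Tbx5/Foxf1 cells and 5.63% of endothelial-gated cells at E9.5 (40.8% and 15.0% unthinned), against at most 0.571% of erythroid-gated cells in any library with at least 20 of them (3.71% unthinned).

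Ligands and antagonists were set against each other as the summed UMIs of the 6 ligands over those of the 3 antagonists. Capture differs between genes, so only changes of this ratio between sums are read, not its absolute value. Over all cells the log2 ratio in stage order was -0.56, -0.82, -0.98 and -0.60, and the pooled UMIs of the late libraries differed from those of the early ones by -0.14. Leaving out E8.0 or E9.5 turned this difference to 0.04 each time, without E8.25 it was -0.22 and without E10.5 it was -0.34. Single compartments differed by more than this between stages. In Isl1/Nkx2-5 cells the log2 ratio was -1.67, -0.94, -0.06 and 0.03, in Tbx5/Foxf1 cells -0.90, -0.53, -0.19 and 0.20, and in Meox1/Tcf15 cells -1.96, -1.41, -1.21 and -0.35, so both late values lay above both early ones in these 3 compartments. In Meox1/Tcf15 cells the intervals at E8.25 (-1.50 to -1.31) and E9.5 (-1.59 to -0.84) overlapped. In 2 compartments both late values lay below both early ones. Cardiomyocyte-gated cells had 0.067 and -0.37 in early and -0.95 and -0.38 in late libraries, where the intervals at E8.25 and E10.5 overlapped. Wt1/Upk3b cells had 1.25 and 1.39 in early and -1.76 and -0.72 in late libraries, beside Sfrp1 levels of 46.4 and 63.8 CPM early and 431 and 222 CPM late. Endothelial-gated cells moved from -0.57 and -0.77 to 1.28 and 1.09, on 110 and 67 ligand UMIs in the early and 129 and 269 in the late libraries, of which Wnt4 gave 45.7% and 38.3% in the late ones.

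**Figure D3:**
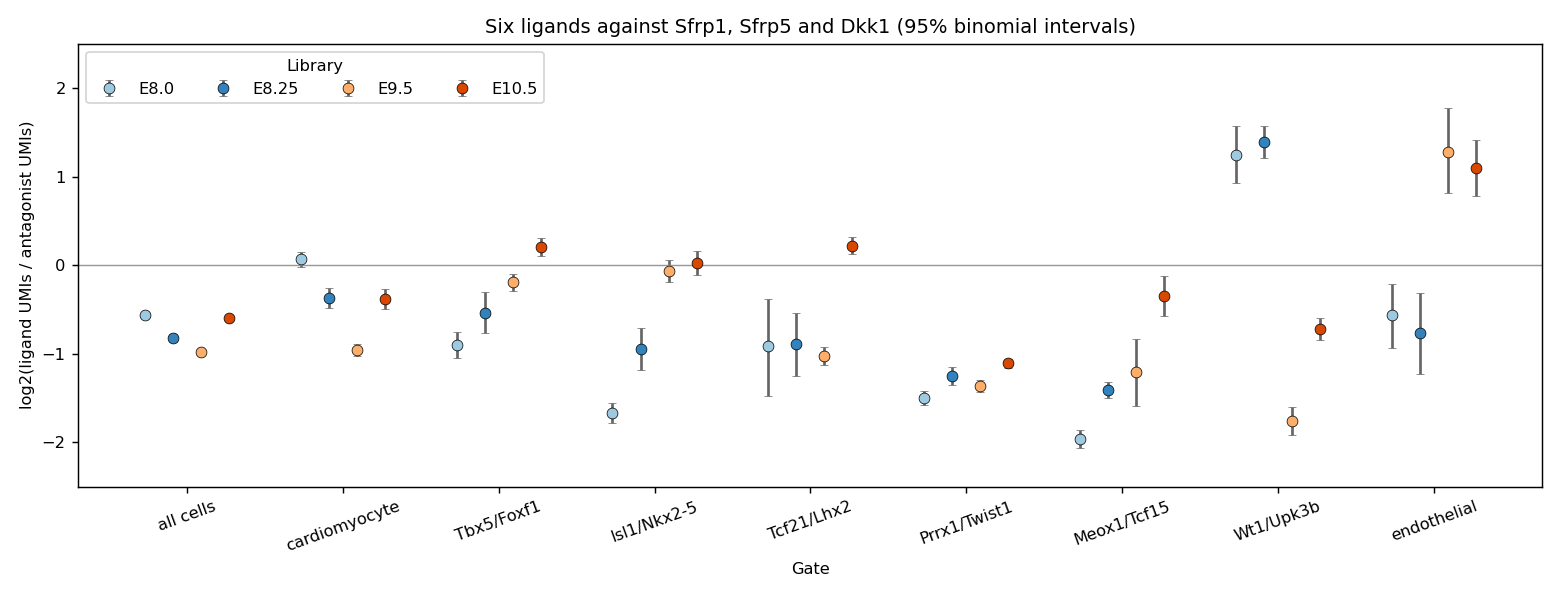
Log2 ratio of the summed UMIs of the 6 ligands to those of Sfrp1, Sfrp5 and Dkk1 for each gate and library, with 95% exact binomial intervals (counting error only). The late libraries lie above the early ones in Tbx5/Foxf1, Isl1/Nkx2-5, Meox1/Tcf15 and endothelial-gated cells, with overlapping intervals at E8.25 and E9.5 in Meox1/Tcf15 cells. They lie below them in Wt1/Upk3b and cardiomyocyte-gated cells, the latter by little at E10.5 (-0.38 against -0.37 at E8.25). Over all cells the values stay between -0.98 and -0.56.

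To ask which genes set a compartment apart at all stages, summed counts of each gate were compared with those of Isl1/Nkx2-5 cells in the same library with edgeR's quasi-likelihood test, with the library as a block and Benjamini-Hochberg adjustment over all genes tested. The 4 libraries are 4 stages, so the spread behind these p-values includes change of the difference between gates with stage. All 5 comparisons share the Isl1/Nkx2-5 sums. Wnt2b passed the filter on low counts in none of them. Without the library as a block, 7 genes passed in endothelial-gated cells and none in the other 4 comparisons, where the calls below thus rest on the pairing within libraries. The share of all genes passing without the block is not given here.

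In cardiomyocyte-gated cells, 6 of the 9 genes tested passed an adjusted p of 0.05, 3 higher and 3 lower, against 26.0% of the 11001 genes tested. Wnt11, Sfrp5 and Wnt2 were higher and Dkk1, Wnt5b and Axin2 lower, each in 4 of 4 libraries. Wnt11 was higher by a log2 fold change of 2.56 ± 0.45 (SE; adjusted p = 0.0104, edgeR), Sfrp5 by 2.53 ± 0.60 (adjusted p = 0.0256, edgeR) and Wnt2 by 1.87 ± 0.43 (adjusted p = 0.0237, edgeR). Mean levels were 9.77 ± 6.06 against 2.15 ± 2.65 CPM for Wnt11, 139 ± 81.6 against 38.7 ± 56.6 CPM for Sfrp5 and 203 ± 44.0 against 63.7 ± 43.1 CPM for Wnt2 (SD over 4 libraries). The groups did not overlap for Wnt2, although late ventricular and outflow tract cells by themselves lay below the Isl1/Nkx2-5 cells of their library. They did for Sfrp5, where Isl1/Nkx2-5 cells at E8.0 (123 CPM) were above cardiomyocyte-gated cells at E10.5 (28.9 CPM), and for Wnt11, where Isl1/Nkx2-5 cells at E10.5 (5.93 CPM) were above cardiomyocyte-gated cells at E8.25. Dkk1 was lower, at -1.15 ± 0.22 (adjusted p = 0.0126, edgeR), as were Wnt5b at -1.06 ± 0.28 (adjusted p = 0.0336, edgeR) and Axin2 at -0.93 ± 0.22 (adjusted p = 0.0262, edgeR), all on the log2 scale. All 3 overlapped between groups, Dkk1 only by the 18.1 CPM of cardiomyocyte-gated cells at E8.0 against 17.0 CPM of Isl1/Nkx2-5 cells at E8.25. Wnt4, Wnt5a and Sfrp1 missed the threshold, with 95% intervals of -1.04 to 1.23, -1.29 to 0.69 and -0.09 to 1.46 on the log2 scale. Wnt11 alone passed when any 1 library was left out; Wnt2 was lost without E8.0 (adjusted p = 0.0734, edgeR), Sfrp5 without E8.25 (0.0749) or E9.5 (0.103), Dkk1 without E8.0 (0.0523) or E9.5 (0.0645), Wnt5b without E8.0 (0.0914), E8.25 (0.0817) or E9.5 (0.136), and Axin2 without E8.0 (0.0980), E9.5 (0.0992) or E10.5 (0.0520). Wnt5b and Axin2 were also lost when cells in several mesodermal gates were left out (adjusted p = 0.106 and 0.397, edgeR), and Axin2 with gates on thinned cells (0.157). Sfrp1 passed without E8.0, at a log2 fold change of 1.15 (adjusted p = 0.00261, edgeR).

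Around these genes, the rest of the pathway in cardiomyocyte-gated cells was as follows. Of 13 other ligands none passed the filter on low counts. Of 13 other antagonists 6 were tested, with Dkk3 higher (log2 fold change 0.99) and Sfrp2 (-1.33) and Frzb (-1.67), both Frizzled-related proteins, lower. Of 6 feedback and target genes tested, 3 were lower and none higher, namely Sp5 (-1.88), Tcf7 (-0.77) and Znrf3 (-0.58). Of 13 receptors tested, Fzd2 (-0.65) and Fzd3 (-0.57) were lower. Rspo3, an R-spondin that amplifies Wnt signals, was higher (1.89) and Rspo2 lower (-1.24) among 6 R-spondin and release genes tested. Of 17 intracellular genes tested 4 were higher, among them the polarity genes Daam1 (1.06) and Prickle1 (0.86), and Tcf7l1 was lower (-0.48). All these passed edgeR's test at an adjusted p under 0.05, as did 13.9% of all genes in the higher and 12.1% in the lower direction.

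In Tbx5/Foxf1 and in Tcf21/Lhx2 cells, Wnt4 was the 1 gene of the 10 that passed against Isl1/Nkx2-5 cells in the fit reported, a call kept in 11 of 15 and 8 of 14 alternatives. In Tbx5/Foxf1 cells 1 of 9 genes tested passed, against 0.763% of 10744 genes tested (0.279% higher, 0.484% lower). Wnt4 was higher in 4 of 4 libraries by a log2 fold change of 3.06 ± 0.30 (adjusted p = 0.00969, edgeR), with 20.7 ± 19.97 against 2.19 ± 1.24 CPM (SD, n = 4 libraries). The lowest Tbx5/Foxf1 level, 5.01 CPM, was above the highest Isl1/Nkx2-5 level, 3.39 CPM. Without E9.5 the call was lost at 2.54 (adjusted p = 0.0768, edgeR), as it was with stricter gates (2.74, 0.0803) or with all compartments in 1 fit (3.16, 0.143). Wnt2, with 1.28 ± 0.32, and Sfrp1, with 0.90 ± 0.18, were above the Isl1/Nkx2-5 level in 4 of 4 libraries but missed the threshold (adjusted p = 0.179 and 0.0945, edgeR), and Sfrp1 passed without E10.5 (1.11, adjusted p = 0.00910, edgeR). Dkk1, at -1.33 ± 0.32, was below the Isl1/Nkx2-5 level in 3 of 4 libraries and also missed it (adjusted p = 0.169, edgeR). Sfrp1 and Dkk1 each passed in 3 of 15 alternatives. Of 48 other pathway genes tested, 0 passed edgeR's test after adjustment, 7 had an unadjusted p under 0.05, and DESeq2 called 3.

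In Tcf21/Lhx2 cells 1 of 8 genes tested passed, against 1.13% of 10798 (0.509% higher, 0.620% lower). Wnt4 was higher in 3 of 4 libraries by 2.51 ± 0.36 on the log2 scale (adjusted p = 0.0222, edgeR), with 13.1 ± 11.98 against 2.19 ± 1.24 CPM. At E8.25 it had 1 UMI in the 55 Tcf21/Lhx2 cells and 5 UMIs in the 142 Isl1/Nkx2-5 cells, and the call was lost without E8.0 (adjusted p = 0.0827, edgeR), E9.5 (0.106) or E10.5 (0.0845), without cells in several gates (0.0779) and with all compartments in 1 fit (0.456). Wnt5a passed without E8.0 (log2 fold change -0.75, adjusted p = 0.0400, edgeR) and Wnt2 without E8.25 (-1.69, adjusted p = 0.01002, edgeR). Rspo1 (1.26), an R-spondin, and Notum (1.62), an enzyme that strips the lipid from Wnts, also passed as higher.

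Endothelial-gated cells held little of most of these transcripts. Here 8 of 9 genes tested passed, 7 lower and 1 higher, against 38.5% of 10951 genes tested (20.1% higher, 18.5% lower). Wnt2 (log2 fold change -4.09 ± 0.33), Sfrp5 (-4.46 ± 0.59), Dkk1 (-3.10 ± 0.28), Sfrp1 (-3.05 ± 0.36), Wnt5b (-2.83 ± 0.49), Wnt5a (-2.48 ± 0.21) and Axin2 (-1.40 ± 0.22) were lower in 4 of 4 libraries and stayed past the threshold when any 1 library was left out. Wnt11 was higher by 1.49 ± 0.47 (adjusted p = 0.0430, edgeR) in 4 of 4 libraries, with 4.54 ± 3.57 against 2.15 ± 2.65 CPM, and this call was lost without E8.0 (adjusted p = 0.0794, edgeR), E8.25 (0.0716) or E9.5 (0.141) and in 8 other alternatives. Wnt4 missed the threshold over the 4 libraries, at 1.19 ± 0.83 (adjusted p = 0.294, edgeR), with levels below the Isl1/Nkx2-5 level in both early libraries and above it in both late ones. Among the other antagonists, Sost was higher at 30.9 ± 13.8 against 0.131 ± 0.0985 CPM, while Sfrp2, Frzb, Dkk3 and Shisa2 were lower. Of 13 receptors tested 6 were lower and 3 higher, with Fzd10 (2.06) the most raised, and 5 of 6 feedback and target genes tested were lower, Sp5 (-3.04) and Lef1 (-1.42) among them.

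In Meox1/Tcf15 cells 2 of 7 genes tested passed, against 3.70% of 10737 (1.43% higher, 2.26% lower). Wnt2 was lower, at -2.42 ± 0.48 on the log2 scale (adjusted p = 0.0393, edgeR), and so was Sfrp5 at -2.19 ± 0.29 (adjusted p = 0.00759, edgeR), each in 4 of 4 libraries. Without E8.0 neither passed (adjusted p = 0.183 and 0.123, edgeR), Wnt2 was also lost without E9.5 (0.162) and Sfrp5 with all compartments in 1 fit (0.250). Dkk1 was at -1.78 ± 0.43 and Axin2 at 0.68 ± 0.18 without passing (adjusted p = 0.0768 and 0.103, edgeR), and both passed without E10.5, at -1.31 and 0.87 (adjusted p = 0.0138 and 0.00883, edgeR). Of the wider pathway, Nkd2, a feedback regulator, was higher (1.58) and Rspo2 lower (-2.26).

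**Figure D4:**
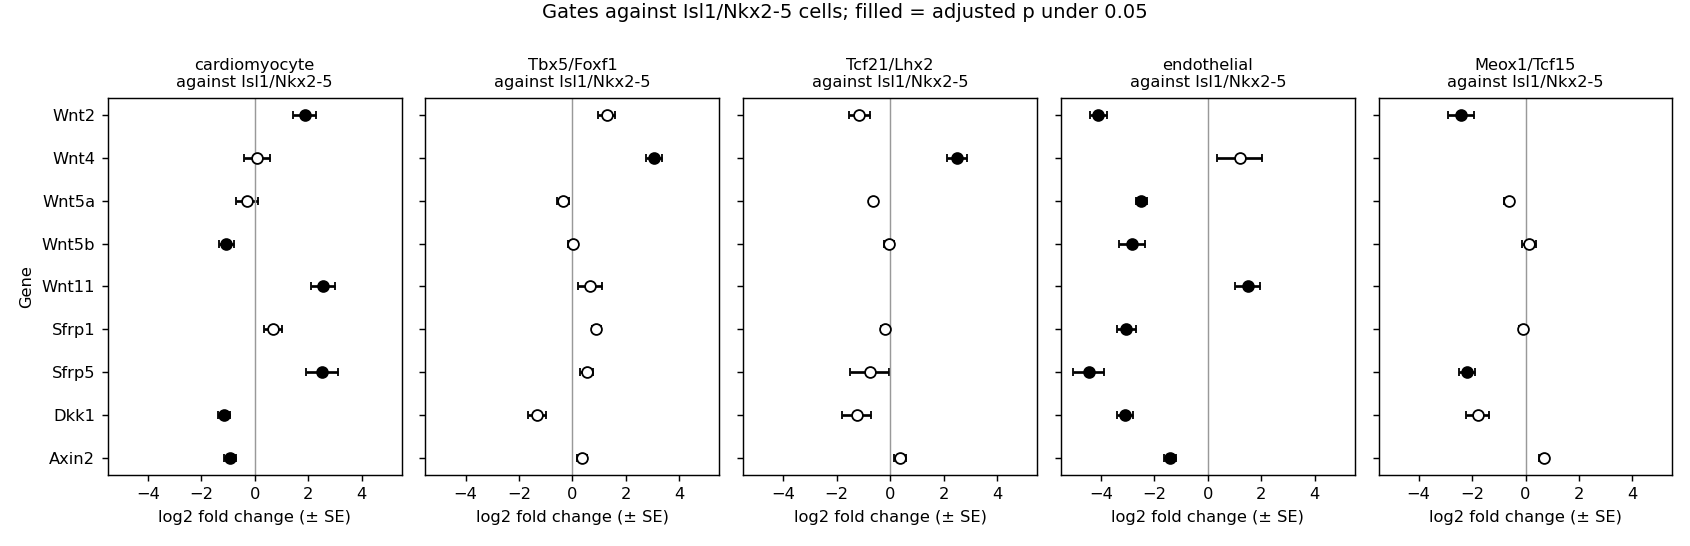
Log2 fold change (± SE, edgeR) of each tested gene in 5 gates against Isl1/Nkx2-5 cells, over 4 libraries. Filled points passed an adjusted p of 0.05: 6 in cardiomyocyte-gated, 1 each in Tbx5/Foxf1 and Tcf21/Lhx2, 8 in endothelial-gated and 2 in Meox1/Tcf15 cells. Genes without a point were not tested.

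Whether these differences changed between the early and the late libraries was tested with an interaction term, added after the values were seen. Over all genes tested, 0.682% passed in cardiomyocyte-gated, 1.04% in Tbx5/Foxf1, 0.630% in Tcf21/Lhx2, 4.36% in endothelial-gated and 1.70% in Meox1/Tcf15 cells. Of the 10 genes, Wnt5a passed in cardiomyocyte-gated, Wnt4 in endothelial-gated and Dkk1 in Meox1/Tcf15 cells, and none in the other 2 comparisons.

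The genes whose levels ran most like those of each member were taken over the same 42 sums, among 13430 genes with at least 200 UMIs. For Wnt2 these were Smarcd3 (Pearson r 0.92), a chromatin remodelling subunit of heart precursors, Bmp5 (0.88) and Speg (0.86). For Sfrp1 they were Tenm3 (0.94), Gpc3 (0.92) and Cntfr (0.92), and for Sfrp5 1010001N08Rik, Adk and Amph (0.85, 0.82 and 0.81). The gene nearest to Dkk1 was Wls (0.80), which carries Wnt proteins to the cell surface, and the one nearest to Wnt11 was Prnp (0.82). For Wnt5a it was Ccdc112 (0.87), for Wnt5b Scube3 (0.84) and for Axin2 Tmem107 (0.88). Wnt4 was nearest to Afap1l2, at 0.73, and Wnt2b, with its few UMIs, to Prss35, at 0.66. Among the members themselves, Wnt2 ran closest to Sfrp1 (0.80) and Sfrp5 (0.72). These values have no p, because the sums share libraries, depth and cells of neighbouring gates.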

How the data were processed

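Unique molecular identifier (UMI) counts per gene and cell were used as deposited: the authors made them with Cell Ranger 3.1.0 on mm10 from droplet 3′ libraries (10x version 2 chemistry), 1 library per stage. The deposited counts were not normalized, and no column of per-sample values was left out (0 unused). A 3′ kit gives 1 tag per transcript, so levels are not divided by length, and capture differs between genes.

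Cells with under 1000 genes or over 10% mitochondrial UMIs were removed, and the highest Scrublet scores (scanpy 1.11.5) were dropped at 0.8% per 1000 cells, which removed 70 to 517 cells a library. Gates used UMIs of marker genes. Levels are UMIs per 1000000 (CPM) with exact Poisson 95% intervals, ratios have exact binomial intervals, and a count of 0 allows 3 UMIs; these cover counting error only. Shares of cells were also taken after thinning to 5000 UMIs, leaving out 23 shallower cells at E9.5.

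Sums of at least 20 cells were compared with edgeR 4.0.16 (quasi-likelihood, TMM, filterByExpr, library as block, Benjamini-Hochberg) in R 4.3.3. Whether pooled embryos differ between libraries of a stage cannot be seen. With the library as block, p-values rest on how the difference between compartments within a library varied over these 4 libraries. Alternatives included DESeq2 1.42.0, other scalings, gates and cell filters, and each library left out. Promoter letters were searched in RefSeq windows of 250 bases, and the GATA motif was widened to 4 forms after the promoters were seen. All 10 genes are reported, with up to 5 called genes per pathway list and the 3 genes of most similar pattern per member. The members and lists were chosen with earlier results of these data known.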

Additional observations from a re-analysis of the deposited data

Results flagged for a closer look

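A test of whether the difference from Isl1/Nkx2-5 cells changed between the early (E8.0, E8.25) and late (E9.5, E10.5) libraries was added after seeing the data. It used edgeR's quasi-likelihood test with 2 libraries per period. Values are the late minus the early log2 difference, and stage and dissected region cannot be told apart in them.

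Wnt4 in endothelial-gated cells passed at a fitted 5.24 (SE 0.74, adjusted p = 0.00727, edgeR), a value that rests on 1 UMI in each early endothelial sum. With a pseudocount of 1 CPM the mean log2 difference was -0.89 early and 1.92 late, a smaller change, with the gate below Isl1/Nkx2-5 cells in both early and above them in both late libraries, where 4.36% of genes tested passed. Wnt5a in cardiomyocyte-gated cells passed at -1.99 (SE 0.28, adjusted p = 0.0470, edgeR; 0.682% of genes passed), with 63.8 and 21.8 CPM against 30.6 and 18.2 CPM in Isl1/Nkx2-5 cells early and 20.1 and 34.5 against 44.2 and 92.4 CPM late. Dkk1 in Meox1/Tcf15 cells passed at -2.74 (SE 0.54, adjusted p = 0.0444, edgeR; 1.70% of genes passed), being below Isl1/Nkx2-5 cells in all 4 libraries and further below late.

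For a pair of other values every library of one period moved opposite to every library of the other while the test was not passed. These were Wnt4 in cardiomyocyte-gated cells, at -1.59 (SE 0.75, adjusted p = 0.359, edgeR), and Wnt5a in Tbx5/Foxf1 cells, at -1.01 (SE 0.29, adjusted p = 0.183, edgeR). Some of these directions were near-ties with Isl1/Nkx2-5 cells. Wnt4 had 12 UMIs of 8416936 against 11 of 8944296 at E8.0, and 18 of 5471339 against 16 of 4719323 at E10.5. Wnt5a in Tbx5/Foxf1 cells at E8.25 had 30 UMIs of 1597196 against 90 of 4955653. No cause of these differences was tested.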

How the results depend on the processing

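Each comparison paired a compartment with the Isl1/Nkx2-5 cells of its own library, with the library as the block. Without that block, 0 genes passed in cardiomyocyte-gated (6 in the reported fit), Tbx5/Foxf1 (1), Tcf21/Lhx2 (1) and Meox1/Tcf15 cells (2). Leaving out each library gave 2 to 5, 0 to 2, 0 to 2 and 0 to 4 genes, and 7 to 8 in endothelial-gated cells. In Tbx5/Foxf1 cells DESeq2 gave 2, no filter on low counts 4, stricter gates 0, gates on thinned cells 2, leaving out cells in several mesodermal gates 2 and all compartments in 1 fit 0. The same settings gave 4 (no filter), 2 (stricter), 5 (several gates) and 0 (all compartments) in Tcf21/Lhx2 cells, and 5 (no filter), 4 (thinned) and 5 (several gates) in Meox1/Tcf15 cells. The count of genes at least 2-fold higher late, or at least 2-fold lower late, was 1. It became 2 with totals free of haemoglobin, mitochondrial and ribosomal genes, 2 without erythroid-gated cells and 0 with equal weights. With thinned cells it was 2, and with a library left out 2 to 4. No share over all genes is given here for these settings. The late minus early ligand over antagonist log2 ratio of -0.14 became -0.17 with equal weights, -0.20 with thinned cells and -0.34 to 0.043 with a library left out, 0.042 without E8.0 and 0.043 without E9.5.

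Log2 values that changed sign were near 0 or did so with a library left out, and the cause was not tested. The exception was Sfrp5 in Tcf21/Lhx2 cells, at -0.77 in the reported fit, which changed sign without cells in several gates. Late over early levels of Sfrp5 and Dkk1 changed sign without E8.0 and also without E10.5. With 1 library left out, values against Isl1/Nkx2-5 cells ran from -0.35 (without E8.25) to 0.61 for Wnt4 and from -0.79 to 0.10 (without E10.5) for Wnt5a in cardiomyocyte-gated cells, from -0.073 (without E10.5; -0.025 without E8.0) to 0.12 for Wnt5b in Tbx5/Foxf1 cells, from -0.22 to 0.078 (without E9.5; 0.0083 without E8.0) for Wnt5b in Tcf21/Lhx2 cells, and, in Meox1/Tcf15 cells, from -0.28 to 0.025 (without E8.0; 0.012 without E10.5) for Sfrp1 and from -0.25 (without E10.5) to 0.29 for Wnt5b. Wnt5b in Tbx5/Foxf1 cells was -0.017 with stricter gates, -0.023 with doublets kept, -0.023 with no cell filter and -0.014 with all compartments in 1 fit. Wnt5b in Tcf21/Lhx2 cells was 0.067 without the block, 0.20 with stricter gates, 0.30 with thinned gates and 0.37 without cells in several gates, where Sfrp5 was 0.0040. Late over early levels ran from -2.70 to 0.74 (without E10.5; 0.26 without E8.0) for Sfrp5, from -0.37 to 0.39 (without E8.0; 0.19 without E10.5) for Dkk1, from -0.014 (without E9.5) to 1.71 for Wnt2 and from -0.0020 (without E10.5) to 1.72 for Wnt5a. Of the recomputed values of single genes, 568 kept their direction and side of the threshold, 47 fell short of it, 34 newly passed, 52 without a test moved beyond their counting interval and 24 changed sign. Of those of counts and ratios, 54 stayed, 39 moved and 2 changed sign. Depth limits Wnt2b (169 UMIs), early endothelial Wnt4 and chamber groups of 10 to 21 cells.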
